A study of Mus musculus with 8 samples.

Results

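Cells sense their own cholesterol through a group of membrane proteins and take up more of it with lipoproteins, and 9 genes of these steps were followed here across hematopoietic cells with and without PICALM. The 9 were Insig1, Insig2, Scap, Srebf1, Srebf2, Npc1, Npc2, Scarb1 and Lrp1. Every probe set of the mouse array that carried the symbol of one of them alone was taken, which gave 14 of the 22626 probe sets tested and 8 of the 9 genes. Insig1 had no such probe set and was not analysed here. Srebf2, Npc2, Insig2 and Scarb1 had more than 1 probe set, and of these the brightest, with the highest mean over the 8 arrays, stands for the gene where 1 value per gene is given.

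PICALM is an adaptor that takes part in the assembly of clathrin coats at the cell surface, and the study asked what its presence changes in gene expression. Expression was measured on 8 Affymetrix mouse arrays, 1 per sample, from 4 cell lines named PICALM6A, PICALM6B, PICALM6D and PICALM84 (6A, 6B, 6D and 84 below). In each line PICALM-rescued cells, which carried PICALM in the retroviral vector MSCVneo, were compared with Picalm-knockout cells, which carried the vector empty, so that there were 4 arrays in each group. Both groups came from the fetal liver of embryos at embryonic day 14 labelled fit1 Picalmfit1-5R on the background B6(Cg)-TyrC-2J/J, both had been immortalized with the fusion oncogene MLL-ENL and selected by replating, and both were kept in medium with IL-3 at 5 ng/ml and stem cell factor (SCF) at 50 ng/ml. No group of unmodified wild-type cells was on the arrays, each line is an immortalized line of its own, and PICALM in rescued cells was driven by the viral vector, whose level may lie above the normal one. No probe set was named Picalm alone, so the level of Picalm was not analysed here and could not serve to check the group labels.

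The sterol-sensing part of this pathway sits in the endoplasmic reticulum. Srebf1 and Srebf2 encode transcription factors that are made as membrane-bound precursors. Scap carries the precursors to the Golgi when sterols are scarce, where the proteases of Mbtps1 and Mbtps2 release the active factor, and the Insig proteins hold Scap back when sterols are plentiful. Srebf2 mainly drives the genes of cholesterol synthesis, and Srebf1 mainly those of fatty acid synthesis. Cholesterol that enters with LDL is freed in the lysosome, where the soluble protein Npc2 hands it to the membrane protein Npc1 for export. Scarb1 encodes a receptor that takes cholesteryl esters from HDL, and Lrp1 encodes a large endocytic receptor that binds, among many ligands, lipoprotein remnants rich in apolipoprotein E.

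Many genes of sterol synthesis carry, near their start sites, short sterol elements bound by the factors of Srebf1 and Srebf2, next to CCAAT boxes and GC boxes. The 250 bases before the start site are shown for Srebf2 and Srebf1, which encode those factors, and for Hmgcs1, an enzyme of the same pathway, because these are the regulators and a target around which the comparisons below are ordered. Capitals mark motifs on either strand. The sterol element core was searched as TCACNCCAC. A shorter form of 8 letters, which is part of the longer one where N is C, was searched as TCACCCCA and was added after these promoters had been looked at. The CCAAT box was searched by those letters. The GC box was searched as GGGCGG. The E-box was searched as CACGTG. Sequences and coordinates are those of RefSeq on GRCm38.p6, printed in the direction of transcription.
Srebf2, chr15:82147019-82147268, plus strand: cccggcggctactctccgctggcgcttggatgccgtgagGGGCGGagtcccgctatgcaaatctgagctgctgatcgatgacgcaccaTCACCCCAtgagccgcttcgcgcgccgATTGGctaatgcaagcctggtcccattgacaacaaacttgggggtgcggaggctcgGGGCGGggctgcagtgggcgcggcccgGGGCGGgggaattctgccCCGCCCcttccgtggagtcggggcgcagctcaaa
Srebf1, chr11:60210472-60210721, minus strand, 1 of 3 start sites: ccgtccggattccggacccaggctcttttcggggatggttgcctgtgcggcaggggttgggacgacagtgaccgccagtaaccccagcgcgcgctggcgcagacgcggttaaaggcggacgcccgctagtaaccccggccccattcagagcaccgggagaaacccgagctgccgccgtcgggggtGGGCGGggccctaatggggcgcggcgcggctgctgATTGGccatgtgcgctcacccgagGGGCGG
Hmgcs1, chr13:119690101-119690350, plus strand: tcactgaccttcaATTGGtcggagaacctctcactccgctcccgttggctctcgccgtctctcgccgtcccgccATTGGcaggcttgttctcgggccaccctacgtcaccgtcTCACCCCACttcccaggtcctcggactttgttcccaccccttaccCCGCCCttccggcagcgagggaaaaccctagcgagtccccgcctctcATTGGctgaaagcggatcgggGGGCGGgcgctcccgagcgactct

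The Srebf2 promoter held TCACCCCA at position -162 from its start and CCAAT, read on the opposite strand, at -135, with 4 GC boxes around them. The Hmgcs1 promoter held the full core TCACNCCAC at -137 with 3 CCAAT boxes, and the Srebf1 promoter shown held neither form of the core. Promoters of 7 of the 9 genes were in the table, with 12 start sites. Of these 12 windows, 0 held TCACNCCAC, which 1.05% of all 32851 promoters of the same length held, and 1 held TCACCCCA, against 1.34% of all promoters. CCAAT was found in 6 of the 12 windows, against 33.8% of all, GGGCGG in 9 of 12, against 32.7%, and CACGTG in 2 of 12, against 6.02%. Among the cholesterol synthesis enzymes, 1 of 18 windows, that of Hmgcs1, held the sterol core in either form, 14 held CCAAT and 15 held GGGCGG. These counts describe the letters of the windows only, and sterol elements spelled otherwise were not searched for.

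Line 84 stood apart from the other 3 lines. The arrays of 6A, 6B and 6D correlated with each other at 0.995 to 0.998 over all probe sets, while the 2 arrays of line 84 correlated with them at 0.970 to 0.985 and with each other at 0.990. Markers written for the cell types that fetal liver could hold were looked at in the same arrays. All 11 hematopoietic progenitor markers were measured, and their mean log2 level was 11.04 to 11.15 in rescued arrays and 11.09 to 11.18 in knockout arrays. Single progenitor markers moved more than this mean. In every line 4 of the 11 were higher with PICALM and 1 lower, where 12.0% and 11.8% of all probe sets were. The lower one was Cd34, which differed by -1.92, -1.62, -0.51 and -0.94 in 6A, 6B, 6D and 84. The means of the 8 hepatocyte, 8 endothelial and stromal, and 5 erythroid markers measured lay between 5.69 and 6.33 on every array. Single markers lay above this band, among them Pecam1, with a mean of 8.45, and Klf1, at 8.33 in rescued cells of line 84. The hepatocyte marker Afp was at 7.97 to 8.56 in knockout cells. It differed by -1.03, -1.32, -1.93 and -0.73 in 6A, 6B, 6D and 84. Of the hepatocyte markers it was the 1 lower in every line, and 1 was higher. The neutrophil granule markers differed with PICALM, with a mean of 10.44 to 11.79 in rescued and 8.34 to 10.06 in knockout arrays. In every line 8 of the 11 measured were higher with PICALM, where 12.0% of all probe sets were, and 0 were called in the fit described below. The interferon response genes were at 7.32 in rescued and 9.84 in knockout cells of line 84, and at 5.93 to 6.09 on the 6 arrays of the other lines. The mast cell and basophil markers also differed with PICALM, with a mean that was higher in rescued cells by 0.74, 0.22, 0.62 and 1.55 in 6A, 6B, 6D and 84. Of the 7 measured, 4 were higher in every line, where 12.0% of all probe sets were, and 0 were called in the same fit. Gata2, of this list, differed by -0.44, -0.26, -0.044 and 0.22. The mean of the list was 9.51 in rescued and 7.96 in knockout cells of line 84, against 6.21 to 6.93 in rescued and 5.99 to 6.22 in knockout cells of the other lines. The macrophage markers were at 7.28 to 7.91 in rescued and 7.40 to 7.81 in knockout arrays. The part of these differences in the results below was not tested. In bulk RNA, fewer cells that express a gene and less RNA per cell cannot be told apart.

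Among the 8 sterol-sensing and uptake genes, Srebf2 was the one gene whose brightest probe set differed by a like amount in all 4 lines, at 1.09-fold higher in rescued cells, and it did not pass the test after adjustment. The other Srebf2 probe set differed by -0.040 in line 84. In 6A, 6B and 6D no probe set of any of the 8 genes differed by more than 0.23 on the log2 scale. In these lines together Srebf1 was lower in rescued cells (-0.13) by about as much as the brightest Srebf2 probe set was higher (0.13). Scarb1, Npc1 and Lrp1 were higher in rescued cells mainly in line 84. With limma and the line as a block, 0 of the 14 probe sets were called higher or lower at the FDR threshold that the methods name, where 0.00442% of all probe sets were called higher and 0.0751% lower. Their adjusted p ran from 0.347 to 0.974. One probe set, of Srebf2, had an unadjusted p under 0.05 (1 of 14), where 12.5% of all probe sets did. SAM, the test that the methods name, was recomputed here. It called 0 of the 14 with and without pairing, and the methods' t-test gave 0 of the 14 a p under 0.05. Without line 84, 4 of the 14 had an unadjusted p under 0.05, where 14.3% of all probe sets did, and 0 of the 14 were called, where 0.221% of all were. In all 14 the values of the rescued and knockout arrays overlapped, whereas 3.45% of all probe sets had groups that did not.

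**Figure D1:**
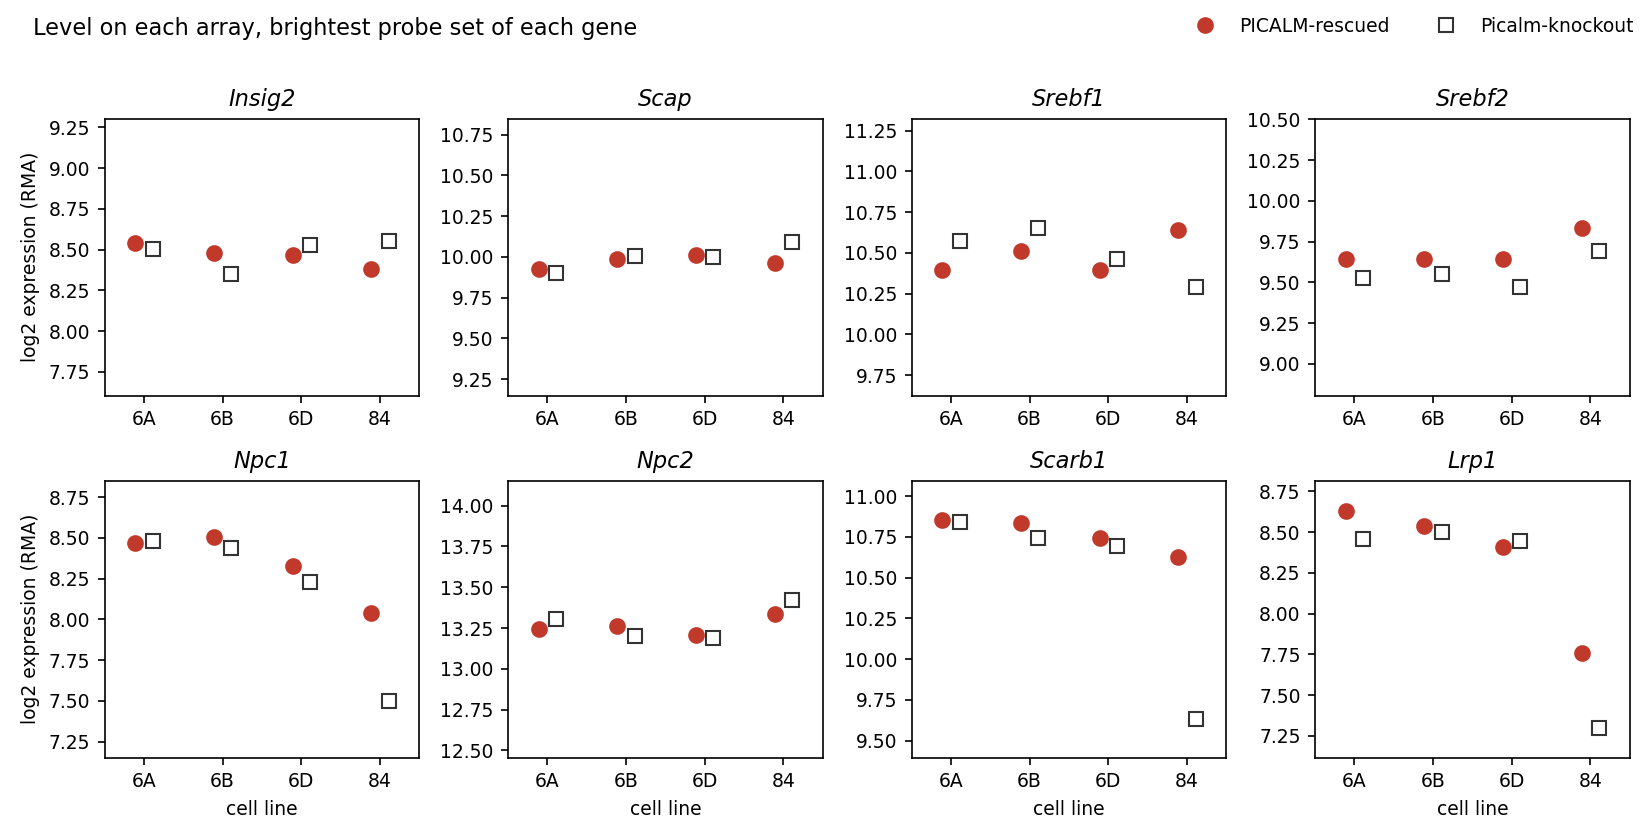
Log2 expression (RMA) of the brightest probe set of each of the 8 genes on each array, by cell line on the horizontal axis, with filled circles for PICALM-rescued and open squares for Picalm-knockout cells; all panels span the same log2 range. Srebf2 lies higher in the rescued cells of each line, and the knockout array of line 84 lies lowest for Srebf1, Scarb1, Npc1 and Lrp1.

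Srebf2 came first among the regulators. Its brightest probe set, 1426744_at, read a log2 level of 9.64, 9.64, 9.64 and 9.84 in rescued cells of 6A, 6B, 6D and 84, against 9.53, 9.55, 9.47 and 9.69 in knockout cells of the same lines. Rescued cells were higher in every line, while the knockout array of line 84 was above 3 of the 4 rescued arrays, so that the groups overlapped. The differences of 0.11, 0.092, 0.17 and 0.14 gave a limma difference, rescued minus knockout, of 0.13 ± 0.041 (SE), with a 95% interval of 0.027 to 0.23 and an adjusted p of 0.347. Without line 84 the difference was again 0.13 (0.012 to 0.24, adjusted p = 0.329). The exact permutation test of the 4 against 4 arrays gave p = 0.114 (two-sided).

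The other Srebf2 probe set, 1452174_at, measured the same gene with separate probes. It read 9.17, 9.13, 9.13 and 9.27 in rescued cells of 6A, 6B, 6D and 84, against 8.94, 8.99, 8.96 and 9.31 in knockout cells. The rescued cells were higher in 6A, 6B and 6D, by 0.23, 0.14 and 0.17, and in line 84 the difference was -0.040. Over the 4 lines the limma difference was 0.13 (95% interval -0.018 to 0.27, adjusted p = 0.437), and without line 84 it was 0.18 (0.066 to 0.30, adjusted p = 0.268). Both probe sets thus read higher in rescued cells in 3 lines, and they parted in line 84.

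Srebf1 ran the other way in 3 of the lines. Its probe set 1426690_a_at read 10.39, 10.51, 10.39 and 10.64 in rescued cells of 6A, 6B, 6D and 84, against 10.57, 10.66, 10.46 and 10.29 in knockout cells. In 6A, 6B and 6D the rescued cells were lower, with differences of -0.18, -0.15 and -0.067, and in line 84 they were higher by 0.35. The 4 differences averaged out at -0.010 (95% interval -0.25 to 0.23, adjusted p = 0.974). Without line 84 the limma difference was -0.13 (-0.25 to -0.011), and its adjusted p of 0.332 did not pass. The difference in line 84 lay at percentile 92.5 of all probe sets in that line, and with 1 pair of arrays it has no replicate. The array's Srebf1 probe set carries no information in the files on which of the start sites it reads.

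Scap, the escort of both precursors, lay closest to level among the regulators in 6A, 6B and 6D, with differences of 0.025, -0.022 and 0.012. Probe set 1433520_at read 9.93, 9.99, 10.01 and 9.96 in rescued cells, against 9.90, 10.01, 10.00 and 10.09 in knockout cells, in the same order of lines. The knockout arrays spanned the rescued ones, and the limma difference was -0.029 (95% interval -0.15 to 0.088, adjusted p = 0.825), or 0.0050 (-0.10 to 0.11) without line 84. Insig2, which retains Scap in the endoplasmic reticulum, was read by 3 probe sets that did not behave alike. The brightest, 1417982_at, read 8.54, 8.48, 8.47 and 8.38 in rescued cells, against 8.50, 8.35, 8.53 and 8.55 in knockout cells. Rescued cells were higher in 6A and 6B and lower in 6D and 84, and the limma difference was -0.016 (-0.17 to 0.14, adjusted p = 0.928), or 0.036 without line 84.

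The Insig2 probe set 1417981_at was nearly flat, with 7.81 to 7.87 in rescued arrays, 7.80 to 7.85 in knockout arrays and a limma difference of 0.021 (95% interval -0.080 to 0.12), or 0.031 without line 84. The third, 1417980_a_at, is the dimmest of the 3 and followed the pattern of Srebf1. It read 6.33, 6.29, 6.24 and 5.96 in rescued cells of 6A, 6B, 6D and 84, against 6.39, 6.41, 6.43 and 5.37 in knockout cells. Rescued cells were lower in the first 3 lines, with differences of -0.065, -0.12 and -0.19, and higher by 0.60 in line 84, where the knockout level lay -1.05 from the median of the other knockout arrays. The limma difference was 0.054 (-0.29 to 0.40, adjusted p = 0.89), against -0.13 (adjusted p = 0.342) without line 84. The Insig2 result therefore depends on the probe set, and none of the 3 was called.

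**Figure D2:**
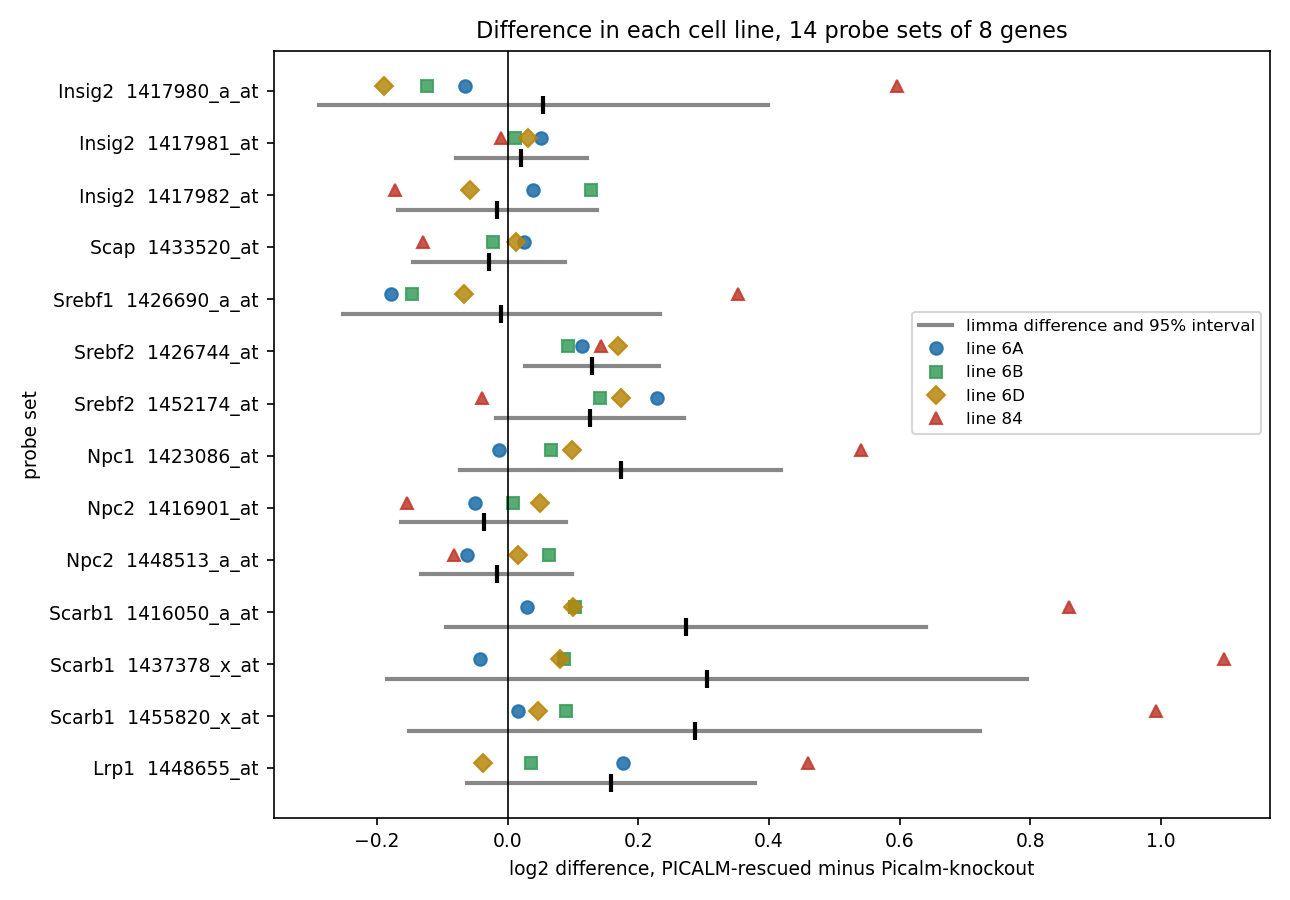
Log2 difference, PICALM-rescued minus Picalm-knockout, for each of the 14 probe sets (rows), with 1 symbol per cell line and, below each row of symbols, the limma difference (black tick) with its 95% interval (grey bar). The 4 symbols of Srebf2 1426744_at sit together between 0.092 and 0.17, and those of line 84 sit far to the right for the 3 Scarb1 probe sets, at 0.86 to 1.10.

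Npc1 and Npc2, the pair that moves LDL-derived cholesterol out of the lysosome, differed in how much line 84 moved them. For Npc1, probe set 1423086_at read 8.47, 8.50, 8.33 and 8.04 in rescued cells of 6A, 6B, 6D and 84, against 8.48, 8.44, 8.23 and 7.50 in knockout cells. In 6A the groups were level and in line 84 rescued cells were higher by 0.54. The limma difference was 0.17 ± 0.10 (SE), with a 95% interval of -0.072 to 0.42 and an adjusted p of 0.509, and without line 84 it was 0.051 (-0.070 to 0.17, adjusted p = 0.638).

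Npc2 was among the steadiest of the genes. Its brighter probe set, 1448513_a_at, read 13.24, 13.26, 13.20 and 13.34 in rescued cells, against 13.31, 13.20, 13.19 and 13.42 in knockout cells, a limma difference of -0.017 (95% interval -0.13 to 0.10, adjusted p = 0.900), or 0.0055 without line 84. The other, 1416901_at, read 12.64 to 12.74 in rescued and 12.59 to 12.90 in knockout arrays, a difference of -0.037 (-0.16 to 0.090, adjusted p = 0.787), or 0.0026 without line 84. Both intervals include small differences in either direction, which 4 lines could not resolve.

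The Npc1 level followed the lines more than the vector. The genes nearest to it in pattern were picked for that likeness, so their sharing it is no separate result. Over the 8 arrays the 5 probe sets with the highest Pearson r with Npc1 were those of Lcp2 (0.997), Glud1 (0.996), Ostf1 (0.996) and Ccn3, with 2 probe sets (0.996 and 0.995). On the 6 arrays without line 84, which were among the 8 used for the picking, these r were 0.967, 0.984, 0.955, 0.939 and 0.971. The same measure for Srebf2, added after its values were seen, gave Jak2 (0.988), Napa (0.980), Tspan8 (0.974), Cela3b (0.971) and Ndufb11 (0.971), with 0.904 to 0.966 on the 6 arrays. These are descriptions over arrays that share their lines, taken as the highest of all probe sets.

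Scarb1, the HDL receptor, had the largest mean difference of the 8 genes, most of it from line 84. Its brightest probe set, 1455820_x_at, read 10.86, 10.83, 10.74 and 10.63 in rescued cells of 6A, 6B, 6D and 84, against 10.84, 10.74, 10.70 and 9.63 in knockout cells. Rescued cells were higher in all 4 lines, by 0.016, 0.089 and 0.047 in the first 3 and by 0.99 in line 84, a ratio of 1.99 in that line. The knockout array of line 84 lay -1.11 from the median of the other knockout arrays. The limma difference was 0.29 ± 0.18 (SE), with a 95% interval of -0.15 to 0.72 and an adjusted p of 0.533, and without line 84 it was 0.051 (-0.062 to 0.16, adjusted p = 0.621).

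The other 2 Scarb1 probe sets gave the same picture. Probe set 1416050_a_at differed by 0.029, 0.10, 0.10 and 0.86 in 6A, 6B, 6D and 84, with a limma difference of 0.27 (adjusted p = 0.492) and 0.077 without line 84. For 1437378_x_at the differences were -0.042, 0.085, 0.080 and 1.10, with a limma difference of 0.31 (adjusted p = 0.55) and 0.041 without line 84. All 3 probe sets thus had the low knockout array of line 84 in common, and in that line the Scarb1 difference of the brightest probe set lay at percentile 98.8 of all probe sets.

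Lrp1, the remnant receptor, was low in both cells of line 84. Probe set 1448655_at read 8.63, 8.54, 8.41 and 7.76 in rescued cells of 6A, 6B, 6D and 84, against 8.46, 8.50, 8.45 and 7.30 in knockout cells. Line 84 was the lowest in each group, -0.78 from the median of the other rescued arrays and -1.16 from that of the other knockout arrays. The difference was 0.18, 0.036 and -0.038 in 6A, 6B and 6D and 0.46 in line 84, and the limma difference was 0.16 ± 0.089 (SE), with a 95% interval of -0.063 to 0.38 and an adjusted p of 0.505. Without line 84 it was 0.058 (-0.090 to 0.21, adjusted p = 0.665).

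**Figure D3:**
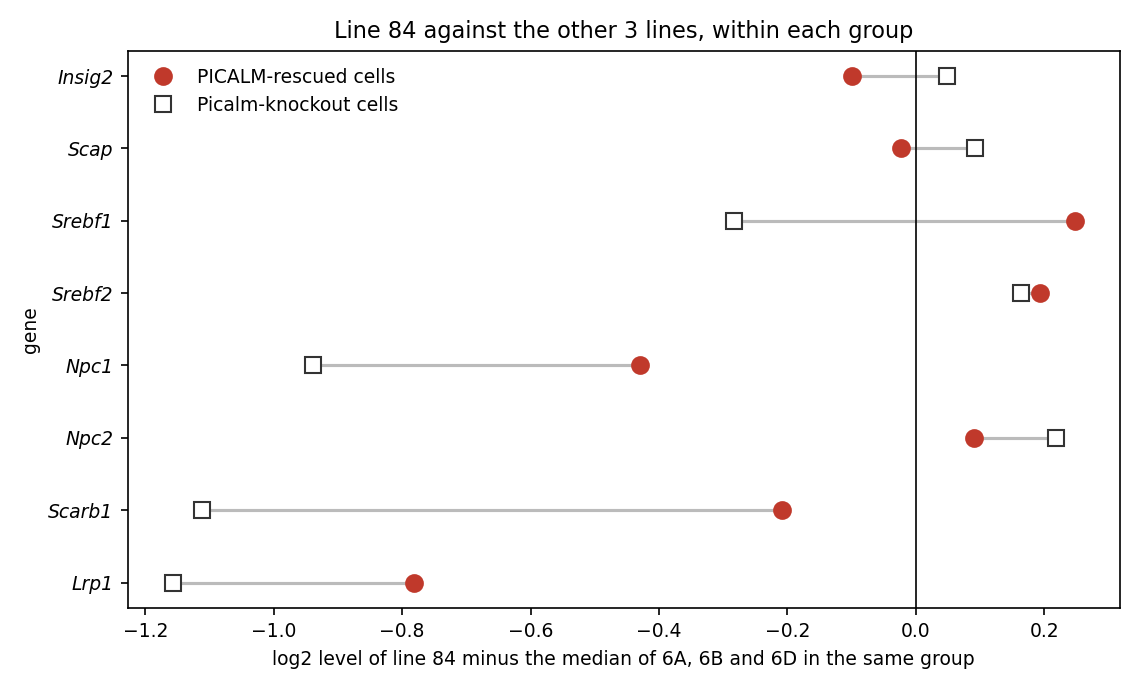
Log2 level of line 84 minus the median of 6A, 6B and 6D within the same group, for the brightest probe set of each of the 8 genes, with filled circles for PICALM-rescued and open squares for Picalm-knockout cells. For Scarb1, Npc1 and Lrp1 both symbols lie below 0, with the knockout value lower (-1.11, -0.94 and -1.16), and for Srebf1 the symbols lie on opposite sides.

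Counted by direction, 2 of the 8 genes, Srebf2 and Scarb1, had higher values in the rescued cells of every line, where 12.0% of all probe sets were, and 0 were lower in all 4, where 11.8% were. In 6A, 6B and 6D alone, the same 2 genes were higher in each line, where 19.9% of all probe sets were, and 1, Srebf1, was lower in each, where 18.4% were. The median difference of the 8 genes was 0.060 (range -0.029 to 0.29), against 0.0027 over all probe sets, and without line 84 it was 0.043 (-0.13 to 0.13). By line the median of the 8 genes was 0.021 in 6A, 0.065 in 6B, 0.014 in 6D and 0.25 in 84. The median size of the difference, whatever its sign, was 0.051, 0.078, 0.052 and 0.263 in these lines, against 0.098, 0.086, 0.067 and 0.134 over all probe sets. These medians are a description, and no test was made of them.

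Other genes that regulate the pathway were measured for 12 of 18 listed. With limma 0 of the 12 were called, and 2 had an unadjusted p under 0.05, both lower in rescued cells, against 12.5% of all probe sets. SAM with the lines paired called 1 of them lower, as it did 476 of all 22626 probe sets. This was Mbtps1, the site-1 protease that first cleaves the precursors, at 10.17, 10.17, 10.21 and 10.49 in rescued cells of 6A, 6B, 6D and 84, against 10.34, 10.31, 10.31 and 10.58 in knockout cells. The limma difference was -0.13 (95% interval -0.23 to -0.02, adjusted p = 0.351), and the 2 dimmer Mbtps1 probe sets differed by -0.076 and 0.11. Without line 84 the difference was -0.14. Rnf145, a ubiquitin ligase of the endoplasmic reticulum, was the other gene lower in all 4 lines, with a difference of -0.088 (adjusted p = 0.446) and -0.097 without line 84. Its unadjusted limma p was 0.082, so it was not one of the 2 genes under 0.05. The median of the 12 was 0.035, and 0.016 without line 84.

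Receptors and uptake factors other than Scarb1 and Lrp1 spread widely around a median of 0.013, which turned to -0.0051 without line 84. Of 19 measured, 4 were higher in all 4 lines and 3 lower, against 12.0% and 11.8% of all probe sets. Limma called 0 of them, as did SAM with and without pairing, and 3 had an unadjusted p under 0.05, 1 higher and 2 lower, against 12.5% of all probe sets. Sorl1, a sorting receptor that also binds lipoproteins, was at 11.51, 11.49, 11.33 and 11.07 in rescued cells, against 10.84, 11.09, 11.17 and 9.82 in knockout cells. Its difference was 0.62 (95% interval 0.18 to 1.06, adjusted p = 0.332) and 0.41 without line 84. Sort1, which encodes the sorting receptor sortilin, differed by 0.30, 0.038, 0.088 and 2.13 in 6A, 6B, 6D and 84, so that its mean of 0.64 (adjusted p = 0.509) fell to 0.14 when line 84 was left out. Dimmer Sort1 probe sets differed by 0.20 and 0.23 over the 4 lines. Mylip, a ubiquitin ligase that marks lipoprotein receptors for breakdown, differed by 0.12 (adjusted p = 0.422), and by 0.082 without line 84.

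The 3 uptake factors with lower values in the rescued cells of each line were Dab2, Lpl and Snx17. Dab2, a clathrin adaptor for endocytic receptors, differed by -0.13, -0.28, -0.34 and -1.17 in 6A, 6B, 6D and 84, a limma difference of -0.48 (adjusted p = 0.37) and -0.25 without line 84. Dimmer Dab2 probe sets differed by -0.51 and -0.019 over the 4 lines. Lpl, the lipase that releases fatty acids from lipoproteins, differed by -0.47, -0.30, -0.22 and -1.34, a limma difference of -0.58 (adjusted p = 0.352) and -0.33 without line 84. Snx17, an endosomal sorting protein, differed by -0.093 (adjusted p = 0.46) and by -0.073 without line 84. Mbtps2 had no probe set of its own and was not analysed here.

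Of the endosomal and intracellular transport genes, 21 of 26 were measured, with a median difference of 0.063, which was 0.014 without line 84. In all 4 lines 6 were higher and 5 lower, against 12.0% and 11.8% of all probe sets. Limma called 0 and SAM with the lines paired called 1 of them lower, as it did 476 of all 22626 probe sets. An unadjusted p under 0.05 was found for 5, 3 higher and 2 lower, against 12.5% of all probe sets. The one that SAM called was Abca1, which exports cholesterol to apolipoproteins, at 5.45, 5.57, 5.54 and 7.31 in rescued cells, against 6.03, 6.10, 5.78 and 8.15 in knockout cells. Its mean level lay at percentile 37.2 of all probe sets. The limma difference was -0.55 (95% interval -0.79 to -0.31, adjusted p = 0.246), and 2 dimmer probe sets of the gene differed by 0.0036 and 0.13, so that the direction depends on the probe set. Without line 84 the difference was -0.46. Stard4, a soluble sterol carrier, differed by 0.19 (adjusted p = 0.392), which fell to 0.11 without line 84. Smpd1, the acid sphingomyelinase of the lysosome, differed by 0.20 (adjusted p = 0.423), which fell to 0.10 without line 84. Scp2, a sterol carrier of peroxisomes, differed by 0.16 (adjusted p = 0.368), and by 0.19 without line 84.

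The enzymes of cholesterol synthesis, whose genes Srebf2 mainly drives, had a median difference of 0.31, against 0.060 for the sterol-sensing and uptake genes. All 17 measured were higher in every line with PICALM, where 12.0% of all probe sets were, and with the mean over the probe sets of a gene this held for 16. An unadjusted p under 0.05 was found for 15, against 12.5% of all probe sets, although limma called 0 of them. SAM as recomputed here, on the brightest probe sets, called 1 higher, Mvk, with the lines paired and 0 without. Of all 22626 probe sets it called 137 higher with the lines paired and 22 without. The study's own SAM list differs. The pathway table drawn from it holds Cyp51, Fdft1, Fdps, Hmgcs1, Nsdhl and Pmvk. Why the SAM results differ was not tested. The study reported higher expression of cholesterol pathway genes in rescued cells by qPCR too. By qPCR it also reported a rise of such genes when PICALM was knocked down in other cell types. It proposes that PICALM in excess may have a dominant negative effect. The median of the 17 enzymes was 0.24, 0.20, 0.15 and 0.62 in 6A, 6B, 6D and 84, and 0.20 without line 84. Hmgcs1, whose promoter is shown above, was at 11.80, 11.78, 11.65 and 11.62 in rescued cells, against 11.69, 11.55, 11.54 and 11.47 in knockout cells, with a limma difference of 0.15 (95% interval 0.043 to 0.26, adjusted p = 0.334), and again 0.15 without line 84. Sqle, which makes squalene epoxide, differed by 0.25 (adjusted p = 0.318), and by 0.20 without line 84. The largest differences were those of Sc5d (0.46), Mvd (0.46), Fdps (0.42) and Lss (0.35), which fell to 0.23, 0.25, 0.26 and 0.17 when line 84 was left out. Dimmer probe sets differed by 0.21 (Sc5d), 0.41 (Mvd), 0.056 (Fdps), and 0.18 and 0.23 (Lss), so the sizes depend on the probe set. The enzymes of fatty acid synthesis, which Srebf1 mainly drives, had a median of 0.079 with 15 of 15 measured, which was 0.041 without line 84. Of the 15, 4 were higher and 1 lower in all 4 lines, against 12.0% and 11.8% of all probe sets. Limma and SAM called 0 of them, and 3 had an unadjusted p under 0.05, against 12.5% of all probe sets. Their differences ran from -0.14 to 0.73. Examples were Elovl5 (0.18), Acss2 (0.19) and Fasn (0.13) above 0 and Gpam (-0.14) below it, with 0.19, 0.14, 0.064 and -0.15 without line 84. Whether the lists differed from each other was not tested.

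**Figure D4:**
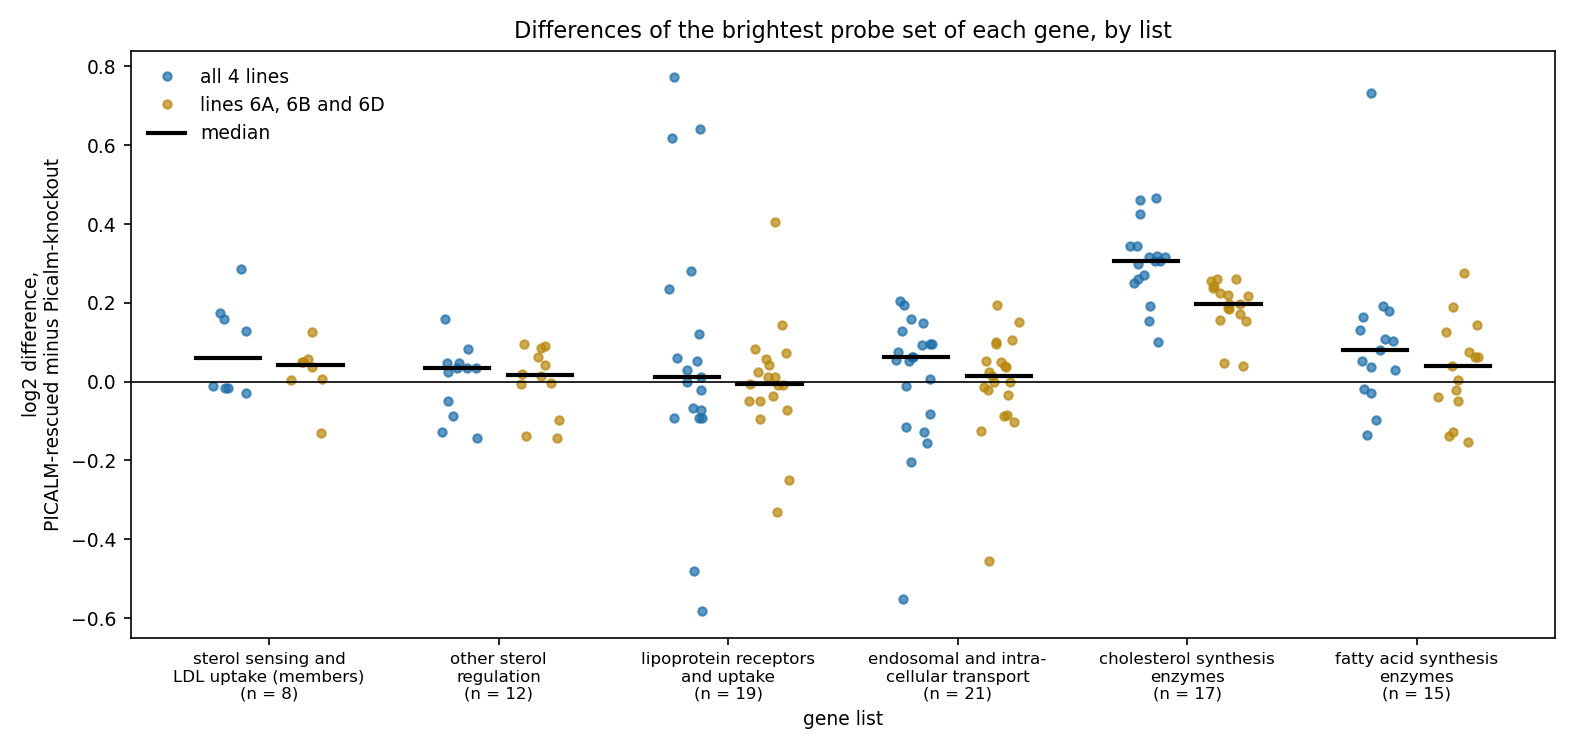
Log2 difference, PICALM-rescued minus Picalm-knockout, of the brightest probe set of each gene in 6 lists (1 point per gene, black bar at the median), over all 4 lines (blue) and over 6A, 6B and 6D (ochre). The sterol-sensing and uptake genes have a median of 0.060, close to 0 beside the 0.31 of the cholesterol synthesis enzymes.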

How the data were processed

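Log2 expression values of 8 Affymetrix mouse arrays (4 rescued, 4 knockout) were used as deposited. The authors normalized them by RMA on the log2 scale, without pooling. The full mouse array is named in the methods, but the labels give its A version, which is the one the table matches. The genome build and annotation behind the probe sets are not given in the sources used here. No filter on signal was applied, and 0 columns were left unmapped. Of 22690 probe sets, 64 controls were left out. Of the remaining 22626, 20380 had 1 gene symbol in the platform annotation, 691 had several and 1555 none. Of 12393 symbols, 12369 were found in the RefSeq gene table through their gene IDs, and 0 changed.

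All probe sets were fitted with limma 3.58.1 (lmFit and eBayes, R 4.3.3, statmod 1.5.0) with the line as a block, with two-sided p-values adjusted by Benjamini-Hochberg over all of them. The threshold of 12.3% is the FDR of the methods, which name SAM without stating pairing. Rescued and knockout cells were paired because both derive from 1 line. Within a line, deviations from the mean of the group had a correlation of 0.623 to 0.811. SAM was recomputed here with all 16 sign changes or 70 arrangements, and not with the Excel add-in of the study, so its calls can differ from the study's. An exact permutation test of 4 against 4 arrays cannot give a two-sided p below 0.0286. The fits were tested on simulated data. Figures and tables used Python 3.11.15, numpy 2.4.6, scipy 1.17.1, pandas 2.3.3 and matplotlib 3.10.9.

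The genes, lists, tests and thresholds were chosen with earlier results of these data known. Named were all probe sets of the 9 genes, up to 4 genes of each list with the largest difference in 1 direction in all 4 lines, any that were called, and, where measured, Hmgcs1, Sqle, Mylip, Mbtps1, Mbtps2, Abca1 and Stard4. Some items of this rule are not reported here. Mvk and Snx17 were named after their values were seen. Alternatives were no block, SAM, the methods' t-test (two-sided, for comparison only), quantile normalization, median centring, leaving out the dimmest 40% of probe sets, a variance trend with robust settings, array weights, a threshold of 0.05, averaging the probe sets of a gene, and leaving out each line and each array. Arrays give no count of molecules, so their number limits the precision. The sources used here do not state whether the lines came from separate embryos. P-values of the fit with the line as a block measure how the difference between rescued and knockout cells varied across these lines.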

Additional observations from a re-analysis of the deposited data

Results flagged for a closer look

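Within each group of 4 arrays, an array was singled out when its gap to the nearest other array, divided by the group's whole range, exceeded Dixon's 95% critical value, which chance does in about 5% of groups. Of 70 groups looked at for the genes that the rule above named, without Mvk and Snx17, 19 met this. In 18 of the 19 the array was one of line 84. Over all probe sets, 11.6% of rescued and 15.6% of knockout groups did, 7.99% and 12.7% through the array of line 84. Among the sterol-sensing and uptake genes it was met in 7 of 28 groups, each time by line 84 and 6 times by its knockout array.

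Scarb1, the HDL receptor, had the knockout array of line 84 lowest with all 3 probe sets, at ratios of 0.867 (1416050_a_at), 0.844 (1437378_x_at) and 0.881 (1455820_x_at). The same array was lowest for Lrp1 (0.953) and for the Insig2 probe set 1417980_a_at (0.966). For Srebf2 it was the rescued array of line 84 that lay highest with 1426744_at (0.987) and the knockout array that lay highest with 1452174_at (0.874). Among the other genes of the pathway the knockout array of line 84 was lowest for Mvd (0.941), Sc5d (0.905) and Lss (0.858), all cholesterol synthesis enzymes, and for Mylip (0.870), and highest for Acss2 (0.907). Both arrays of line 84 were lowest in their groups for Sort1 (0.869 rescued, 0.909 knockout) and highest for Mbtps1 (0.877 rescued, 0.867 knockout) and Abca1 (0.934 rescued, 0.863 knockout). The rescued array of 6A was highest for Smpd1 (0.866).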

How the results depend on the processing

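None of the 14 probe sets was called under any alternative, and of 287 alternative values 262 kept the direction and 25 turned it. Leaving out the block, the t-test, the variance trend and the threshold of 0.05 do not change the difference itself. Neither does averaging for a gene with 1 probe set. Their values are among the 262 and could not turn, so the 262 overstate how steady the directions were. For all probe sets, 1 was called higher and 17 lower. Without the replicate block these were 0 and 0, with 1074 at an unadjusted p under 0.05, none of them among the 14. SAM called 137 higher and 476 lower with the lines paired, and 22 and 39 without pairing. The methods' t-test gave 0 and 0 after adjustment, with 1179 at p under 0.05. A variance trend with robust settings gave 19 and 81, array weights 25 and 92, a threshold of 0.05 gave 0 and 4, and leaving out the dimmest 40% gave 0 higher. Leaving out each line, or each array without the block, gave 0 to 8 higher and 0 to 42 lower, the highest of both without line 84. The count of the 8 genes lower in every line was 0 to 1, the 1 being Srebf1 without line 84. With the mean over the probe sets of a gene, 2 endosomal and transport genes were lower in all 4 lines, against 5.

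Leaving out a line or an array moved the log2 difference of Insig2 between -0.21 and 0.15 (1417980_a_at) and between -0.064 and 0.036 (1417982_at), of Scap between -0.062 and 0.0050, of Srebf1 between -0.13 and 0.046, of Npc1 between -0.048 and 0.28, of Npc2 between -0.087 and 0.015 (1416901_at) and between -0.047 and 0.030 (1448513_a_at), and of Lrp1 between -0.13 and 0.35. Npc1 and Lrp1 turned only without the knockout array of line 84. Array weights gave -0.068 (Insig2 1417980_a_at), 0.027 (Insig2 1417982_at) and 0.0055 (Npc2 1448513_a_at), and the mean over the Insig2 probe sets was 0.020. The cause of these turns was not tested. Quantile normalization and median centring turned none of the 14.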
